A study of Mus musculus with 17 samples.

Results

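The genes described here are the 46 that encode the proteins of the large (60S) subunit of the cytosolic ribosome, among 55416 mouse genes counted. They were chosen by name, from Rpl3 to Rpl41 with Rplp0, Rplp1, Rplp2 and the paralogue Rpl22l1, and their pseudogenes were left out. All 46 were found and all 46 passed the filter on low counts in every fit. Polyadenylated RNA was sequenced from E14Tg2a.4, a mouse embryonic stem cell line, kept in serum with leukemia inhibitory factor. In all of the cells Rpl31, itself one of the 46, carried a FLAG-TEV-AviTag, and ALIBi, a system that biotinylates tagged ribosomes close to an anchored ligase, was used to mark ribosomes at the endoplasmic reticulum (ER), which were then affinity purified. Whole-cell RNA came from the same lysates. The groups were ER ribosome-bound RNA after Nmd3 siRNA (3 libraries), after Gnl3 siRNA (3) and after scramble siRNA (2, replicates 2 and 3; replicate 1 is not analysed here), and whole-cell RNA after Nmd3 siRNA (2), Gnl3 siRNA (2) and scramble siRNA (3). A further 2 whole-cell libraries, Nmd3 replicate 2 and Gnl3 replicate 3, carry labels saying that the submitters left them out as outliers, and they enter no value below unless named. All libraries come from this 1 tagged line, and a transient siRNA lowers its target without removing it.

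The large subunit carries the peptidyl transferase centre and the tunnel through which the new protein leaves. Its proteins are made in the cytoplasm, imported into the nucleolus and assembled on ribosomal RNA. Nmd3 is the adaptor that takes the nearly finished subunit out of the nucleus and is released in the cytoplasm, close to the step at which Rpl10 is loaded. Gnl3, also called nucleostemin, is a nucleolar GTP-binding protein that is abundant in stem cells. The mRNAs of ribosomal proteins start with a tract of pyrimidines, the 5' terminal oligopyrimidine (TOP) motif, through which mTOR signalling and Larp1 set their translation together. The proteins have no signal peptide and are made on ribosomes free in the cytosol as well as on ribosomes at membranes.

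The start sites below are shown because the pyrimidine tract is what these mRNAs are known to share. Each line gives 15 bases before and 15 bases from the annotated start of the gene, from the RefSeq promoter windows of build GRCm38.p6, 5' to 3' on the gene's strand, with the longest run of bases that are each C or T in capitals. The first 5 are the members with the highest ratio of ER ribosome-bound to whole-cell RNA after scramble siRNA among those with a window, the next 4 those with the lowest, and the last 3 are Rpl22l1, Rpl13a and the tagged Rpl31. Where a gene had several starts, the one with the longest run was taken.
Rplp2 (chr7:141447636-141447665, plus strand): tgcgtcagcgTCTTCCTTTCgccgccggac
Rpl18 (chr7:45718056-45718085, plus strand): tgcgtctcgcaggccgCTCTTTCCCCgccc
Rpl36a (chrX:134585639-134585668, plus strand): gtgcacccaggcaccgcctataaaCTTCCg
Rpl38 (chr11:114668565-114668594, plus strand): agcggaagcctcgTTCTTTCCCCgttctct
Rpl24 (chr16:55966260-55966289, plus strand): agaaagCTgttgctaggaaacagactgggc
Rpl5 (chr5:107900513-107900542, plus strand): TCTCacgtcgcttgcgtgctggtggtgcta
Rpl4 (chr9:64173372-64173401, plus strand): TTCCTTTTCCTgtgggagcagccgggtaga
Rplp0 (chr5:115559452-115559481, plus strand): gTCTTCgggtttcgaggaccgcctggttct
Rpl6 (chr5:121204486-121204515, plus strand): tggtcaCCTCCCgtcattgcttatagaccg
Rpl22l1 (chr3:28805493-28805522, plus strand): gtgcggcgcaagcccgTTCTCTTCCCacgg
Rpl13a (chr7:45128731-45128760, minus strand): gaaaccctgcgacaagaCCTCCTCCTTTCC
Rpl31 (chr1:39367836-39367865, plus strand): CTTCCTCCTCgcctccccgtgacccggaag
Of the 35 members with a window, 18 (51.4%) held a run of 8 or more bases that are each C or T, on the gene's strand, against 3760 of 27025 genes with a window (13.9%). The longest run had a median length of 8 bases in the members and 5 bases in all genes. Rpl13a had a run of 13 bases and Rpl4 one of 11. The run could lie anywhere in the window, and those of Rpl4 and Rpl31 lie wholly before the annotated start. A run counted here is thus not always part of the mRNA. Rpl24 had none longer than 2 bases in this window.

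Depth ran between 15.2 and 29.9 M gene counts a library, and no member had fewer than 1424 counts in the 15 libraries used. Levels are given as counts per M (CPM), that is, relative to the library's total gene counts. On ER ribosomes Nmd3 RNA measured 25.23, 24.09 and 25.24 CPM after Nmd3 siRNA, against 123.7 and 120 CPM after scramble siRNA. Gnl3 RNA measured 31.58, 26.89 and 29.69 CPM after Gnl3 siRNA, against 170 and 177.4 CPM after scramble siRNA. Both targets were therefore low in every library of their own siRNA. The stem cell marker Pou5f1 lay between 1176 and 1654 CPM in all 15 libraries. Of 7 fibroblast or feeder markers, Vim lay between 209.9 and 339.4 CPM, Thy1 between 8.181 and 33.21, Col1a1 between 1.738 and 6.68 and Col1a2 between 0.153 and 1.033. The other three, Postn, Lum and Col3a1, reached at most 0.053, 0.226 and 0.351 CPM. ER library Nmd3 replicate 2 stood somewhat apart from its group (chi-square per gene 9.297 and 11.04 against the other 2, and 3.271 between those), as did the whole-cell libraries Nmd3 replicates 1 and 3 from each other (9.359), where other pairs within a group gave 2.095 to 4.091. Because these are bulk libraries, fewer cells of a type and less RNA per cell cannot be told apart.

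The 46 mRNAs together took up more of the ER ribosome-bound RNA than of the whole-cell RNA. Their sum was 5.372 ± 0.127% of gene counts on ER ribosomes after Nmd3 siRNA (SD, n = 3), against 4.320 ± 0.105% in whole-cell RNA (n = 2). It was 5.299 ± 0.128% on ER ribosomes after Gnl3 siRNA (n = 3), against 4.362 ± 0.0932% in whole-cell RNA (n = 2). It was 5.627 ± 0.0837% on ER ribosomes after scramble siRNA (n = 2), against 4.309 ± 0.147% in whole-cell RNA (n = 3). The ER libraries, at 5.171% to 5.687%, did not overlap with the whole-cell libraries, at 4.194% to 4.474%. On ER ribosomes the scramble libraries, at 5.687% and 5.568%, lay above all 6 knockdown libraries, of which the highest was at 5.51%. In whole-cell RNA the knockdown libraries (4.246% to 4.428%) lay within the scramble range. Relative to the 33 small-subunit mRNAs the members kept a narrow ratio, 1.34 to 1.362 in all 15 libraries. Within that span the Nmd3 libraries on ER ribosomes (1.351 to 1.362) lay above those of scramble (1.342 and 1.346) and Gnl3 siRNA (1.34 to 1.347). In whole-cell RNA the Gnl3 libraries (1.344 and 1.349) lay below those of scramble (1.358 to 1.362) and Nmd3 siRNA (1.36 and 1.362). These small differences were not tested.

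**Figure D1:**
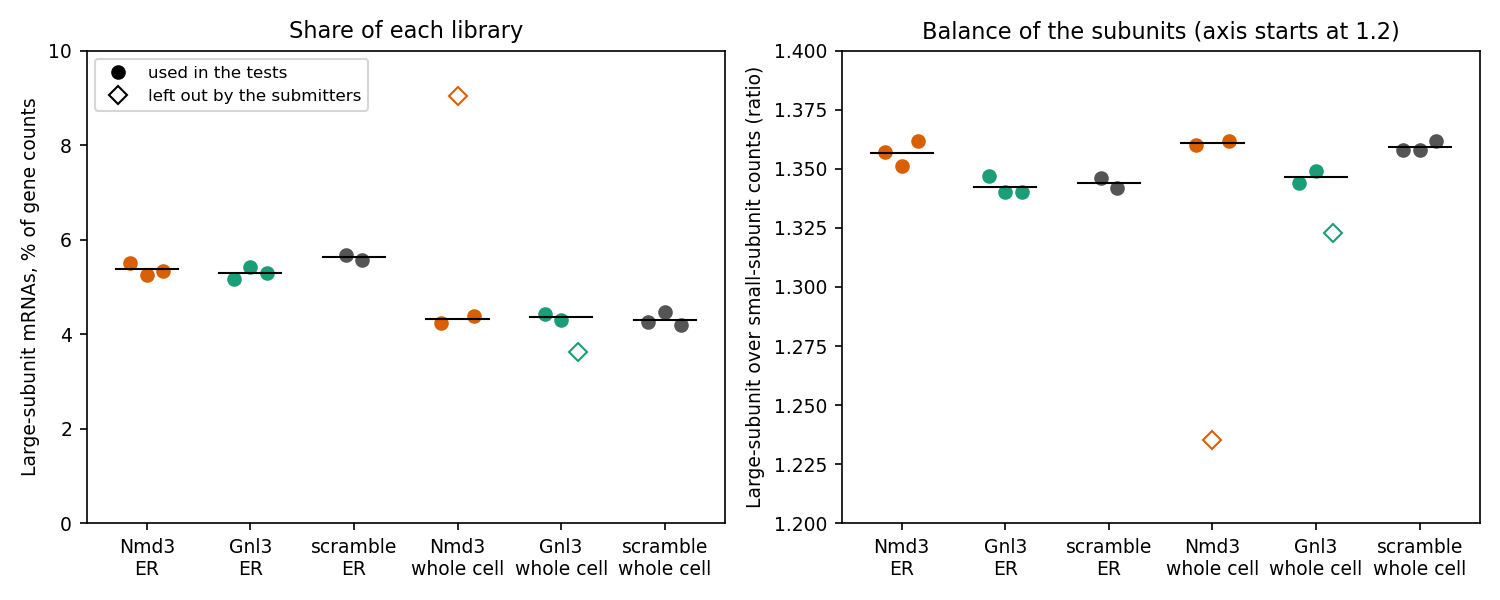
Share of gene counts held by the 46 large-subunit mRNAs (left, in percent) and ratio of their summed counts to those of the small-subunit mRNAs (right), 1 point per library by group, with the 2 libraries left out by the submitters as hollow diamonds. The 8 ER libraries lie between 5.171% and 5.687%, above the 7 whole-cell libraries used, and the ratio stays between 1.34 and 1.362 in these 15.

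Within the whole-cell RNA of scramble cells, levels per kilobase of transcript spread widely. The highest were Rplp1, a protein of the stalk that recruits elongation factors, at 2679 ± 106 CPM per kb, Rpl8 at 2281 ± 60.3 and Rpl41, the smallest protein of the subunit, at 2170 ± 92.8 (SD, n = 3). The lowest were Rpl34 at 324 ± 9.41 CPM per kb, Rpl22l1 at 203 ± 15.8 and Rpl29 at 181 ± 8.41. Many members have processed pseudogenes with near-identical sequence, so counts of uniquely placed reads can miss part of a gene. Over the members a median of 28.5% of the 150-base stretches of the transcript occurred in another annotated gene, from none in Rpl22, Rpl39, Rpl8 and Rpl32 up to 90.9% in Rpl10. Levels of members with many shared stretches are therefore uncertain.

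Comparing ER ribosome-bound with whole-cell RNA sets purified, ribosome-bound RNA against all polyadenylated RNA of the lysate. These groups hold no library of ribosomes away from the ER and none of a mock purification. Nearness to the ER, binding to ribosomes and the purification itself therefore cannot be told apart in this ratio. After scramble siRNA 39 of the 46 members were higher in ER ribosome-bound RNA and none was lower (edgeR quasi-likelihood test, Benjamini-Hochberg adjusted p under 0.05, here referred to as called). Across all genes tested 25.1% were called higher and 50.3% were called in either direction. All 46 estimates were above 0 (51.7% of all genes), with a median log2 ratio of 0.44 against 0.02 over all genes tested. With CPM rescaled by TMM (scaled CPM), the ER libraries lay above every whole-cell library in 42 members and in 34.8% of all genes, and on the unscaled CPM printed here in 45 members. Counts of members whose groups do not overlap are given on the scaled CPM first. Their shares over all genes are on scaled CPM only, so counts on unscaled CPM have no like share beside them. With the 2 whole-cell libraries that the submitters left out in the fit, none of the members was called after any of the 3 siRNAs.

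The members with the largest log2 ratios after scramble siRNA were Rplp2, Rpl18, Rpl36, Rpl36a and Rpl38. Rplp2, a partner of Rplp1 in the stalk, had 1128 and 1085 CPM on ER ribosomes, against 623.7, 634.8 and 627.7 CPM in whole-cell RNA (log2 ratio 0.79, SE 0.05, adjusted p = 2.58e-16). Rpl18 had 2236 and 2157 CPM on ER ribosomes, against 1304, 1349 and 1319 CPM in whole-cell RNA (0.71, SE 0.04, adjusted p = 4.95e-17). Rpl36 had 713.7 and 701 CPM on ER ribosomes, against 435.1, 446.5 and 441.3 CPM in whole-cell RNA (0.66, SE 0.05, adjusted p = 2.32e-14). In all of them both ER libraries were far above the 3 whole-cell libraries. Rpl36a and Rpl38 both had a log2 ratio of 0.61 (SE 0.05 each). Rpl18 has an exon that overlaps an exon of Sphk2 on the other strand, and without a known strand setting its counts may hold reads of that gene.

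A few members, among them the longest, were not called. Rpl4, which lines the exit tunnel, had 2984 and 2958 CPM on ER ribosomes, against 2721, 2824 and 2745 CPM in whole-cell RNA (log2 ratio 0.08). Rpl3, which lies near the peptidyl transferase centre, had 1722 and 1692 CPM on ER ribosomes, against 1604, 1702 and 1605 CPM in whole-cell RNA (0.04). Rpl6 had a log2 ratio of 0.07, Rpl7 0.07, Rplp0 0.07 and Rpl29 0.20 (SE 0.16). The tagged Rpl31 had 968.7 and 909 CPM on ER ribosomes, against 719.4, 736.4 and 684 CPM in whole-cell RNA (0.37, SE 0.18, adjusted p = 0.122). Its ER libraries were above all 3 whole-cell libraries, and its SE was wider than that of most members. The fit estimates each gene's spread over all 15 libraries, not over the scramble libraries alone. Among these, whole-cell Nmd3 replicate 1 was low in Rpl31 and Rpl29 (log2 differences of -0.78 and -0.62 from the other whole-cell libraries). The part of that library in these SE was not tested.

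By role, 3 of the 4 stalk proteins were called higher after scramble siRNA, with a median log2 ratio of 0.38. Their exception was Rplp0, the base of the stalk, with 1785 and 1838 CPM on ER ribosomes, against 1672, 1770 and 1648 CPM in whole-cell RNA, while Rplp1 and Rpl12 each had a log2 ratio of 0.38. Both partners of 5S ribosomal RNA were called, Rpl5 at 0.14 and Rpl11 at 0.38. Of the proteins at the exit tunnel 6 of 8 were called, with a median of 0.38, and of the late-joining proteins 3 of 4, also with a median of 0.38. Among these Rpl24, which is added in the cytoplasm, reached 0.57 and Rpl10, whose loading accompanies Nmd3 release, 0.32. Rpl22 and its paralogue Rpl22l1 had 0.47 and 0.42. Of the 26 remaining proteins of the subunit body 23 were called, with a median of 0.49.

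The knockdown cells gave the same direction. After Nmd3 siRNA 40 members were called higher and none lower (24.5% of all genes called higher, 50.1% in either direction), with a median log2 ratio of 0.36. Of these estimates 45 were above 0 (50.8% of all genes), and 40 members had ER libraries above every whole-cell library on scaled CPM (30.9% of all genes), as did 40 on unscaled CPM. After Gnl3 siRNA 36 were called higher and none lower (23.3% of all genes called higher, 48.1% in either direction), with a median of 0.30. Here 43 estimates were above 0 (51.5% of all genes), and 41 members had ER libraries above every whole-cell library on scaled CPM (33.2% of all genes), as did 42 on unscaled CPM. Called in all 3 siRNAs were 36 members, and Rpl29, Rpl3, Rpl4, Rpl6, Rpl7 and Rplp0 were called in none. Over the 46 members the log2 ratios of Gnl3 and scramble cells correlated at 0.966 (Pearson; Spearman 0.95), those of Nmd3 and Gnl3 cells at 0.807 (0.817), and those of Nmd3 and scramble cells at 0.776 (0.754). These ratios come from separate libraries but share each transcript's length and sequence.

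**Figure D2:**
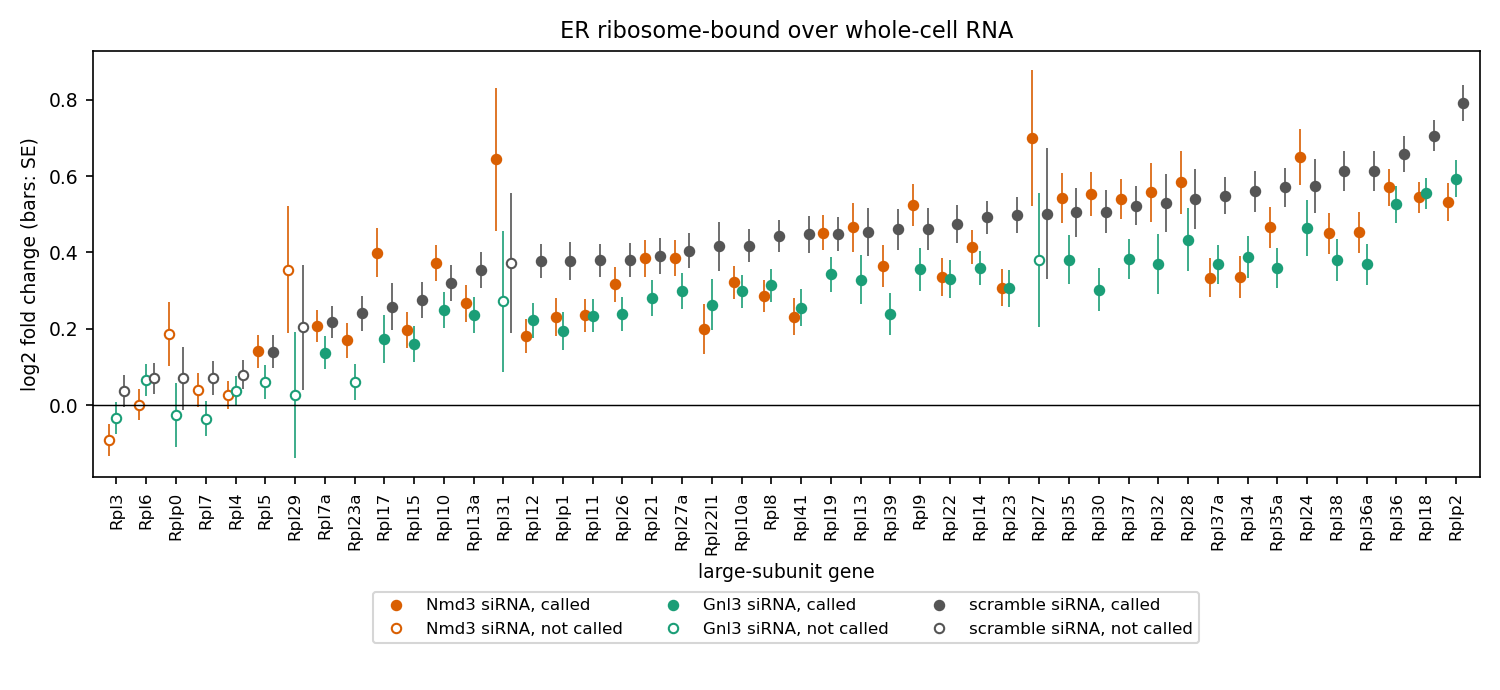
Log2 ratio of ER ribosome-bound over whole-cell RNA for each of the 46 members (x axis, ordered by the scramble value) after Nmd3, Gnl3 and scramble siRNA, with SE bars and filled points where called. Values run up to 0.79 for Rplp2, and Rpl31 and Rpl27 have wide bars.

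After Gnl3 siRNA the members with the largest ratios were again Rplp2 (log2 ratio 0.59, SE 0.05), Rpl18 (0.56, SE 0.04) and Rpl36 (0.53, SE 0.05), followed by Rpl24 (0.46, SE 0.07) and Rpl28 (0.43, SE 0.08). After Nmd3 siRNA they were Rpl27 (0.70, SE 0.18, adjusted p = 0.0081), Rpl24 (0.65, SE 0.07, adjusted p = 9.75e-08), Rpl31 (0.64, SE 0.19, adjusted p = 0.0168), Rpl28 (0.58) and Rpl36 (0.57). After Nmd3 siRNA Rpl31 had 981.4, 890.8 and 898.3 CPM on ER ribosomes, against 428.8 and 740 CPM in whole-cell RNA. Rpl27 had 994.8, 993.5 and 969.9 CPM on ER ribosomes, against 444.9 and 755.9 CPM in whole-cell RNA. In both genes it was whole-cell Nmd3 replicate 1 that was low. Set against the mean of the other 6 whole-cell libraries, that library was lower by a log2 difference of -0.78 in Rpl31, -0.75 in Rpl27 and -0.62 in Rpl29, while its median over the members was -0.04. Without it the log2 ratio was 0.29 for Rpl31 and 0.35 for Rpl27, both still called, and 0.47 for Rpl24. With the lysate as a block neither Rpl31 (adjusted p = 0.134) nor Rpl27 (adjusted p = 0.0896) was called. An exon of Rpl31 overlaps an exon of Tbc1d8 on the other strand, and Rpl24 has exon overlap with Gm28037 on the same strand.

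Short mRNAs in general had higher ratios on ER ribosomes, and the members are short. Their coding sequences had a median length of 469.5 bases, from 75 in Rpl41 and 153 in Rpl39 to 1209 in Rpl3 and 1257 in Rpl4, against a median of 1374 bases over the 14276 tested genes with a coding length. Across members the log2 ratio and the coding length had a Spearman correlation of -0.4844 after Nmd3 siRNA, -0.5513 after Gnl3 siRNA and -0.6816 after scramble siRNA. Across all genes with a length it was -0.4788, -0.4797 and -0.5224. These are descriptions over genes from shared libraries.

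Set against other genes of like length, the members stood close to them after scramble siRNA. Up to 300 bases the median log2 ratio was 0.52 in 5 members and 0.46 in 318 other genes. Above that and up to 450 bases it was 0.50 in 17 members and 0.40 in 713 other genes. From there up to 600 bases it was 0.39 in 10 members and 0.37 in 878 other genes. Next, up to 900 bases, it was 0.32 in 11 members and 0.28 in 1967 other genes. Above 900 bases it was 0.07 in 3 members and -0.09 in 10354 other genes. The members' median was the higher in every class. Up to 900 bases the gap was small beside the distance from the all-gene median, and above 900 bases it was not. With the trend on coding length taken off, the median over members was 0.01 after Nmd3 siRNA, -0.02 after Gnl3 siRNA and 0.10 after scramble siRNA. In that order 24, 20 and 33 of the 46 lay above the trend. Of the 14276 genes with a coding length, 6456, 6396 and 6856 did. The part that length plays in the ratios of these mRNAs was not tested.

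**Figure D3:**
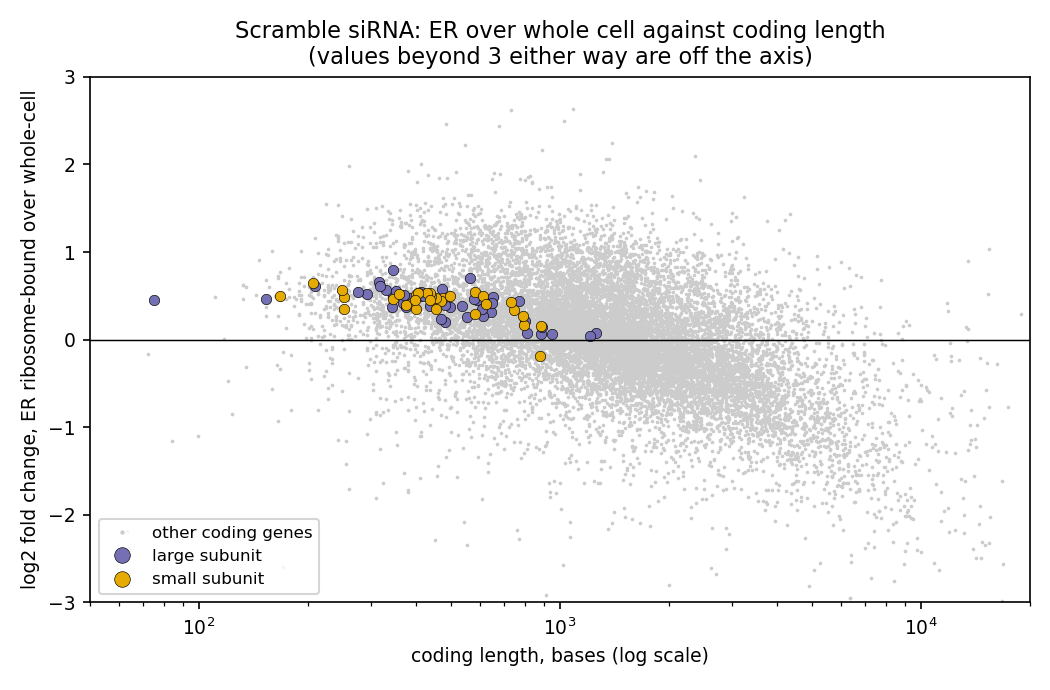
Log2 ratio of ER ribosome-bound over whole-cell RNA after scramble siRNA against coding length in bases (log axis), with all coding genes tested in grey and the large- and small-subunit genes coloured. Of the 46 members 33 lie above the trend fitted to the genes with a coding length, as do 6856 of those 14276 genes. This trend, which is not drawn, falls over the longer coding lengths only. The trend is 0.17 at Rpl41 (75 bases), 0.38 at Rpl31 (375 bases) and 0.13 at Rpl4 (1257 bases). Rpl41 and Rpl4 are the ends of the members' range.

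Related genes had like ratios or not, by group. Of the 33 small-subunit mRNAs, 30 were called higher on ER ribosomes and 1 lower after Nmd3 siRNA, 28 and 1 after Gnl3 siRNA, and 32 and 1 after scramble siRNA, where their median was 0.45. The 1 called lower was Rps2 in each (-0.39, -0.32 and -0.19). Of 18 other mRNAs known to carry a TOP motif, 9 were called higher and 4 lower after scramble siRNA, with a median of 0.08. Eif3k (0.49), Tpt1 (0.43) and Btf3 (0.41) rose, while Eif4b (-0.25), Nap1l1 (-0.24), Eif3e (-0.21) and Eef2 (-0.13) fell. Of 15 partners of 60S assembly and export 3 were called higher and 9 lower, with a median of -0.23. Among 7 regulators of TOP mRNAs Mtor (-1.39), Rptor (-0.76), Rps6kb1 (-0.65) and Eif4e (-0.23) were called lower and Eif4ebp1 (0.32) higher. The paralogues Rpl39l (0.68) and Rpl36al (0.42) were higher on ER ribosomes, and Rpl7l1, a nucleolar relative of Rpl7, had -0.01.
Members with a pyrimidine run of 8 or more bases anywhere in the window around the start had a median log2 ratio of 0.46 after scramble siRNA (n = 18). Members with a shorter run had 0.45 (n = 17). Because the run may lie before the start, this does not sort members by a tract that the mRNA carries.

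A few members were lower on ER ribosomes after Gnl3 siRNA. Compared with scramble siRNA, 5 of the 46 were called lower and none higher, where 1.17% of all genes were called lower, 1.51% higher and 2.68% in either direction. All 46 estimates were below 0 (50.5% of all genes), with a median log2 fold change of -0.11 against -0.002 over all genes. In 42 members the 3 Gnl3 libraries lay below both scramble libraries on scaled CPM, which was so for 17.8% of all genes, and in 41 members on unscaled CPM. An unadjusted p under 0.05 was reached by 34 members (73.9%) and by 14.3% of all genes.

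The largest fall was that of Rpl22l1 (ENSMUSG00000039221.11), the paralogue of Rpl22 that can take its place in the ribosome. On ER ribosomes the Gnl3 siRNA libraries had 108.9, 121.9 and 122.7 CPM, against 150.2 and 153.0 CPM after scramble siRNA (log2 fold change -0.37, SE 0.06, adjusted p = 0.000182). All 3 knockdown libraries were below both scramble libraries, and the call held in all 15 alternatives run, with log2 fold changes between -0.40 and -0.32. Its exons overlap those of Gm33051 on the other strand. Rpl22 itself had 782.9, 861.8 and 815.3 CPM after Gnl3 siRNA, against 882.8 and 877 CPM after scramble siRNA, and was not called (-0.11, adjusted p = 0.175). The ratio of Rpl22l1 to Rpl22 counts was 13.91%, 14.14% and 15.05% after Gnl3 siRNA, against 17.02% and 17.44% after scramble siRNA.

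Rpl38, Rpl36a, Rpl39 and Rpl13a were the other members called. Rpl38 (ENSMUSG00000057322.13), known in mouse embryos for its part in translating Hox mRNAs, had 333.7, 365.2 and 342.8 CPM after Gnl3 siRNA, against 404.7 and 383.3 CPM after scramble siRNA (-0.19, SE 0.05, adjusted p = 0.0169). Rpl36a (ENSMUSG00000079435.10) had 534.9, 584.3 and 559.1 CPM after Gnl3 siRNA, against 640.9 and 617.3 CPM after scramble siRNA (-0.18, SE 0.05, adjusted p = 0.0337). Rpl39 (ENSMUSG00000079641.4), a small protein that lines the exit tunnel, had 492.4, 521.3 and 496.1 CPM after Gnl3 siRNA, against 572.5 and 554.3 CPM after scramble siRNA (-0.17, SE 0.04, adjusted p = 0.0246). In none of them did the groups overlap. Rpl13a (ENSMUSG00000074129.15), a body protein also known in human monocytes for silencing inflammatory mRNAs after its release, had 537.4, 556 and 531.5 CPM after Gnl3 siRNA, against 601.5 and 600.5 CPM after scramble siRNA (-0.16, SE 0.04, adjusted p = 0.0226). Rpl36a shares 81.1% of its 150-base stretches with other genes and Rpl13a 52.7%, while Rpl39 shares none. The only gene sharing stretches with Rpl13a is Gm45713, whose exons overlap those of Rpl13a on the same strand. These 4 calls did not hold in every alternative: between 1 and 24 members were called when single libraries were left out, and 1 with the replicate number as a block. The count of 24 came without ER library Nmd3 replicate 2, which enters this comparison only through the shared estimate of spread. Over all genes the number called moved as well when single libraries were left out, reaching 1173 against 472 in the main fit.

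**Figure D4:**
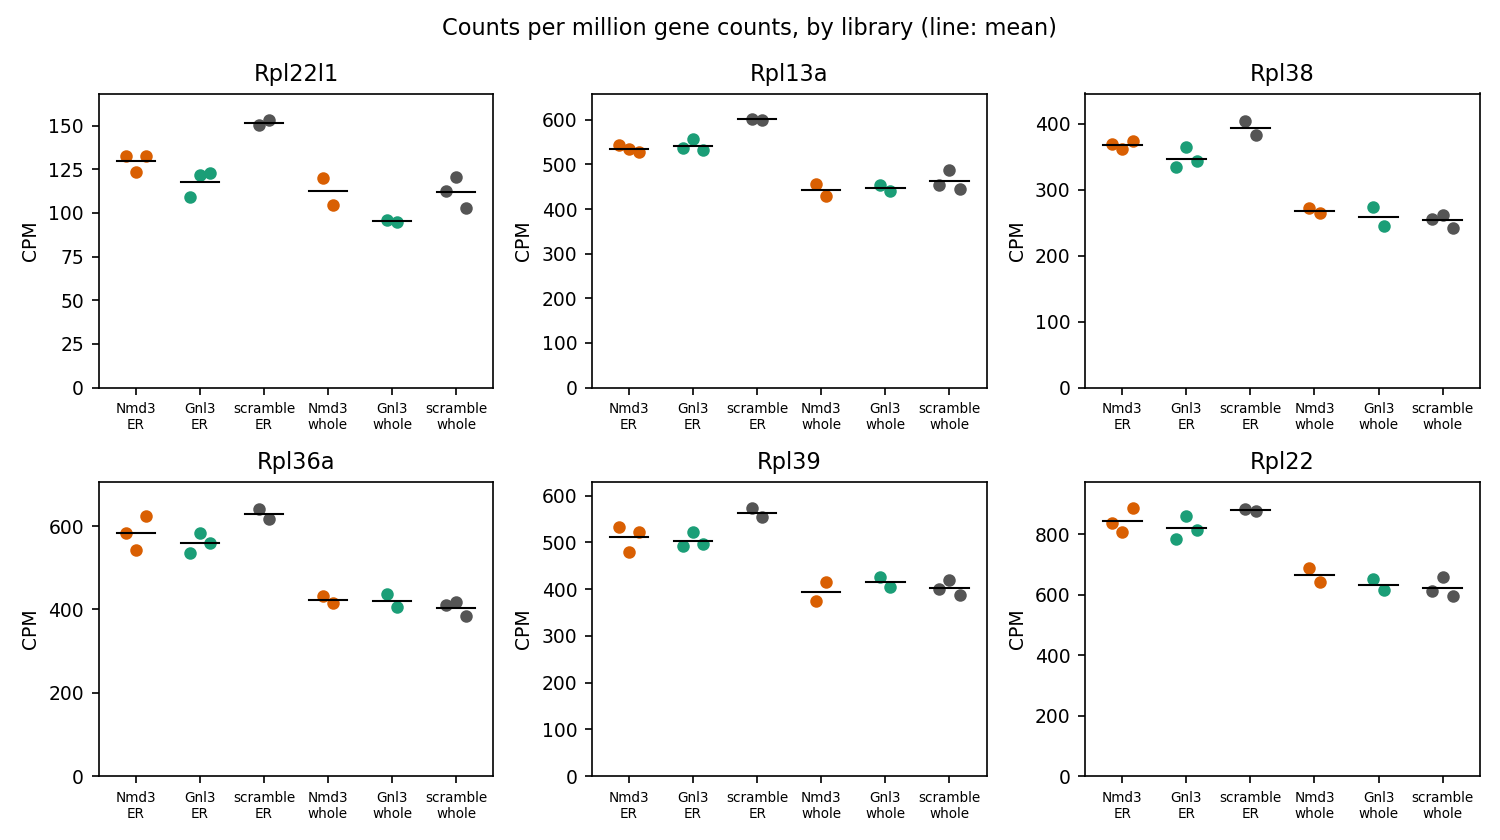
CPM of Rpl22l1, Rpl13a, Rpl38, Rpl36a, Rpl39 and, for comparison, Rpl22 in each of the 15 libraries by group, with a line at the group mean. On ER ribosomes the Gnl3 libraries of Rpl22l1 lie at 108.9 to 122.7 CPM, below both scramble libraries.

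Other members moved less. The smallest log2 fold changes were those of Rpl6 and Rpl4, at -0.04 each. Rpl10 had 1322, 1370 and 1370 CPM after Gnl3 siRNA, against 1402 and 1401 CPM after scramble siRNA (-0.06), and the tagged Rpl31 had 855.4, 939.5 and 899.7 CPM, against 968.7 and 909 CPM (-0.07). The libraries of Rpl31 overlapped between the groups. Rpl24 had -0.07, the 5S partners Rpl5 and Rpl11, which can also bind Mdm2, had -0.05 and -0.08, and in the stalk Rplp0 had -0.07, Rplp1 -0.15 (adjusted p = 0.0793), Rplp2 -0.13 and Rpl12 -0.13. By shared sequence, the median was -0.11 in members sharing under 1% of stretches, -0.11 in those between 1% and 50% and -0.09 in the 13 members at 50% or more. By the window around the start site it was -0.11 with a pyrimidine run of 8 or more bases and -0.11 with a shorter one.

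Beside the members, 3 of 33 small-subunit mRNAs fell on ER ribosomes after Gnl3 siRNA, namely Rps28 (-0.20), Rps12 (-0.17) and Rps21 (-0.15). The small-subunit median was -0.10, with 32 of 33 below 0. None of the 18 other TOP mRNAs was called (median -0.03), and among their regulators Eif4ebp1, an mTOR target that blocks cap binding, fell (-0.16, adjusted p = 0.0434). Of 15 assembly partners only Gnl3 was called. Mdm2, the p53 ligase and a p53 target itself, rose (0.35, adjusted p = 0.00289), as the 1 of 6 genes of the p53 arm called. Of 7 stem cell markers Nanog (-0.25), Esrrb (-0.20) and Zfp42 (-0.17) fell, with a summed level of 4278 to 4397 CPM after Gnl3 siRNA, against 4680 to 4786 CPM after scramble siRNA. Of 7 fibroblast or feeder markers Vim rose (0.37), Col1a1 and Thy1 were not called, and the rest did not pass the filter. Their summed level was 355.3 to 375.6 CPM after Gnl3 siRNA, against 278.6 to 291.1 CPM after scramble siRNA. Most of that sum was Vim, at 317.9 to 339.4 CPM against 246 to 257.7 CPM. The part of either marker change in the members' values was not tested.

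Nmd3 siRNA gave smaller differences on ER ribosomes. Compared with scramble siRNA 2 members were called lower, Rpl22l1 and Rpl13a, and none higher, where 0.516% of all genes were called lower, 0.652% higher and 1.17% in either direction. Of the 46 estimates 42 were below 0 (49.5% of all genes), with a median of -0.07. In 25 members all 3 Nmd3 libraries lay below both scramble libraries on scaled CPM, which was so for 14% of all genes, and in 26 members on unscaled CPM. An unadjusted p under 0.05 was reached by 19 members (41.3%) and by 11.6% of all genes.

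On ER ribosomes Rpl22l1 had 132.5, 123.7 and 132.5 CPM after Nmd3 siRNA, against 150.2 and 153.0 CPM after scramble siRNA (-0.22, SE 0.06, adjusted p = 0.0496). Rpl13a had 544.2, 533.6 and 528.2 CPM after Nmd3 siRNA, against 601.5 and 600.5 CPM after scramble siRNA (-0.16, SE 0.04, adjusted p = 0.0417). Neither gene's groups overlapped. Both adjusted p-values lay close to the threshold, and none of the members was called by DESeq2 or with the replicate number as a block. Rpl10 had 1409, 1325 and 1335 CPM after Nmd3 siRNA, against 1402 and 1401 CPM after scramble siRNA (-0.04), and Rpl24 had 331, 316.6 and 333.5 CPM, against 335.4 and 335.4 CPM (-0.03). Both differences were about the size of their SE, which was 0.04 in each, and in Rpl10 the libraries overlapped. Rpl31 had -0.02, Rpl5 -0.01, Rpl11 -0.07, Rplp0 -0.06, Rplp1 -0.12, Rplp2 -0.11, Rpl12 -0.09 and Rpl22 -0.05.

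The ratio of Rpl22l1 to Rpl22 counts on ER ribosomes was 15.85%, 15.29% and 14.95% after Nmd3 siRNA, against 17.02% and 17.44% after scramble siRNA. Of the small-subunit mRNAs 1 fell, Rps27 (-0.19), and the small-subunit median was -0.07. Among the TOP regulators Larp1, which binds the cap and the pyrimidine tract, fell (-0.17, adjusted p = 0.0382), as did Eif4ebp2 (-0.19, adjusted p = 0.0276). No gene of the other TOP mRNAs, the p53 arm or the stem cell markers was called. Vim rose (0.26). The 7 fibroblast or feeder markers summed to 333.6 to 340.1 CPM after Nmd3 siRNA, against 278.6 to 291.1 CPM after scramble siRNA. Most of that sum was Vim, at 298.5 to 300.4 CPM against 246 to 257.7 CPM. The part of this change in the members' values was not tested.

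**Figure D5:**
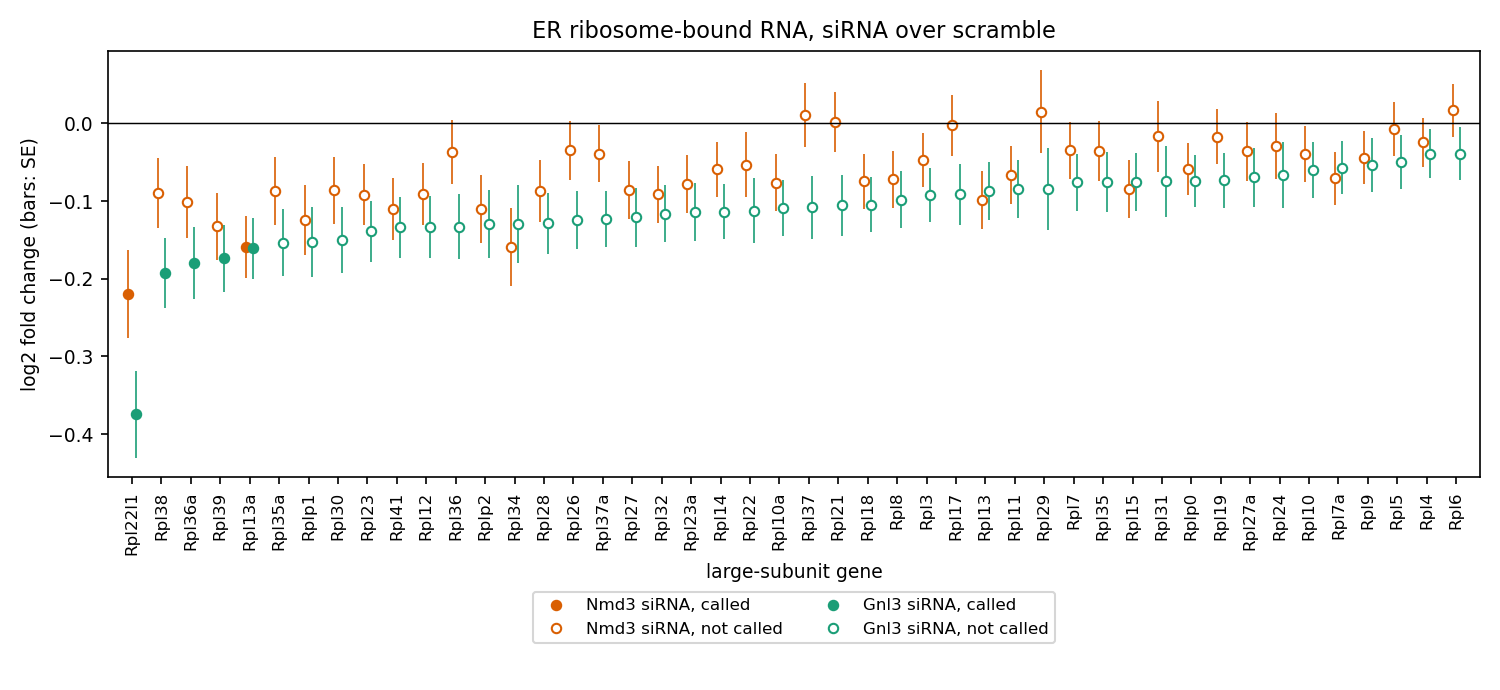
Log2 fold change on ER ribosomes after Nmd3 and after Gnl3 siRNA, each over scramble, for the 46 members (x axis, ordered by the Gnl3 value), with SE bars and filled points where called. All 46 Gnl3 values and 42 Nmd3 values are below 0, and both comparisons use the same 2 scramble libraries.

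The siRNAs were also set against each other on ER ribosomes, where no member was called in Nmd3 against Gnl3 cells (edgeR, 2.19% of all genes called; 9 members and 13.5% of all genes with an unadjusted p under 0.05; none by DESeq2). The median log2 difference was 0.04, with 42 members above 0 (51.7% of all genes). The lowest p-values were those of Rpl37 (0.12, adjusted p = 0.0935), Rpl21 (0.11, adjusted p = 0.118) and Rpl22l1 (0.15, adjusted p = 0.12). The smaller number called after Nmd3 siRNA is therefore not a called difference between the siRNAs. Eif4ebp1 was higher in Nmd3 than in Gnl3 cells (0.15, adjusted p = 0.0396), and Mdm2 (-0.32), Ccng1 (-0.27) and Cdkn1a (-0.23) were lower.

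In whole-cell RNA no member was called in any comparison of siRNAs. For Nmd3 against scramble, edgeR called none of the 46 (0.166% of all genes), 4 had an unadjusted p under 0.05 (9.69% of all genes), and DESeq2 called none. The median log2 fold change was -0.00, and the lowest p-values belonged to Rplp2 (0.15, adjusted p = 0.345), Rpl37a (0.18, adjusted p = 0.324) and Rpl17 (-0.14, adjusted p = 0.502). Rpl31 (-0.29, SE 0.26) and Rpl27 (-0.28, SE 0.25) carried the low values of Nmd3 replicate 1. Without Nmd3 replicate 3 that library is the lone one of its group, and some members were then called, most of them lower. Over all genes the number called also moved when single libraries were left out. For Gnl3 against scramble, edgeR called none (0.812% of all genes), 1 had an unadjusted p under 0.05 (8.5% of all genes) and DESeq2 called none, with a median of 0.03 and 38 of 46 above 0 (48.7% of all genes). That 1 was Rpl22l1, with 95.9 and 94.95 CPM after Gnl3 siRNA, against 112.3, 120.3 and 102.9 CPM after scramble siRNA (-0.22, SE 0.07, adjusted p = 0.191).
For Nmd3 against Gnl3 cells, edgeR called none (0.212% of all genes), 4 had an unadjusted p under 0.05 (9.29% of all genes) and DESeq2 called none, with Rpl22l1 at 0.22 (adjusted p = 0.31), Rpl30 at -0.18 (adjusted p = 0.369) and Rpl9 at -0.16 (adjusted p = 0.494) as the lowest p-values. The ratio of Rpl22l1 to Rpl22 in whole-cell RNA was 17.48% and 16.26% after Nmd3 siRNA, 14.72% and 15.41% after Gnl3 siRNA, and 18.3%, 18.27% and 17.28% after scramble siRNA. The Gnl3 libraries were the lowest on this ratio in whole-cell RNA. Mdm2 (0.41) and Ccng1 (0.36) rose in whole-cell RNA after Gnl3 siRNA.

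Whether the ratio of ER ribosome-bound to whole-cell RNA differed by siRNA was tested as an interaction. For either siRNA edgeR called none of 18271 genes (0%). For Gnl3 against scramble all 46 members were below 0 (49.2% of all genes), with a median of -0.13, 19 with an unadjusted p under 0.05 (3.55% of all genes) and none called by DESeq2. The largest were Rpl36a (-0.24), Rpl38 (-0.23) and Rpl39 (-0.22), each with an adjusted p of 1. This difference followed coding length over the members, with a Spearman correlation of 0.7569 against 0.1898 over all genes with a coding length. Below the trend on length fitted to those genes lay 45 of 46 members and 7729 of the 14276 genes. All 33 small-subunit mRNAs were below 0 too, with a median of -0.14. For Nmd3 against scramble 30 of 46 members were below 0 (47.9% of all genes), with a median of -0.07, 14 with an unadjusted p under 0.05 (5.9% of all genes) and none called by DESeq2. Rplp2 had -0.26 (SE 0.07, adjusted p = 0.54). A change in this ratio was therefore not detected for any single member at this number of libraries.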

How the data were processed

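Polyadenylated RNA was counted in 17 libraries of 6 groups. The authors deposited raw counts per gene, and STAR 2.7.9a, HTSeq 0.11.2, DESeq2 and build GRCm39 are named per the submitters' processing notes; the annotation release and strand setting are not given in the sources used here. HTSeq lines naming no gene were left out of totals and tests; those without a feature came to 46.61% to 48.35% of a library. Symbols and coding lengths came from a GRCm38 annotation, which named 52083 of 55416 IDs, and start-site sequences from RefSeq, GRCm38.p6. Counts were tested by the quasi-likelihood test of edgeR 4.0.16 under R 4.3.3, after filterByExpr and TMM scaling and with a robust fit, with Benjamini-Hochberg adjustment over all genes tested: 17632 genes in 8 ER libraries, 17490 in 7 whole-cell libraries and 18271 in all 15, for 11 comparisons. Calls needed an adjusted p below 0.05. The 2 libraries labelled as left out were kept out. DESeq2 1.42.0, other scalings, no filter, blocks and leaving out single libraries were alternatives, and the edgeR steps were tested on simulated data. The lysate pairs ER and whole-cell libraries by design; deviations of same-numbered libraries correlated between -0.08 and 0.06. Replicates are labelled biological, and p-values measure the spread between these samples. The members and the gene lists were chosen with earlier results of these data known. Members were named for their role (tag carrier, Nmd3-linked Rpl10, Rpl24, 5S partners, stalk, Rpl22 pair), as the 5 largest called changes of a comparison or, with none called, its 3 lowest p-values. The run of C or T anywhere in the window around the start replaced a stricter TOP pattern planned for the same windows.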

Additional observations from a re-analysis of the deposited data

Results flagged for a closer look

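The 2 whole-cell libraries that the submitters left out held signals above those of the scramble whole-cell libraries. In Nmd3 replicate 2 the 46 members made up 9.037% of gene counts, against 4.194% to 4.474% in scramble libraries. Named Rpl pseudogenes summed to 1960 CPM in Nmd3 replicate 2 and to 1548 CPM in Gnl3 replicate 3, against 830.6 to 957.5 CPM in scramble libraries. Reads placed at more than 1 site were 8.702% of entries in Nmd3 replicate 2 and 10.18% in Gnl3 replicate 3, against 6.113% to 6.946% in the 7 whole-cell libraries used. Against the mean of 6 other whole-cell libraries, 44 members in Nmd3 replicate 2 were higher by more than 0.5 on the log2 scale, with a median of 1.56, while in Gnl3 replicate 3 a total of 17 were lower and 5 higher by that much, with a median of -0.19. Each is a single library of its group, and the differences were not tested.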

How the results depend on the processing

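The direction of the members as a group held under every scaling tried, with medians between -0.11 and -0.10 for Gnl3 siRNA on ER ribosomes and between -0.08 and -0.07 for Nmd3 siRNA, while counts of called members moved. Nmd3 siRNA on ER ribosomes called 2 members, but 1 with DESeq2 size factors, 1 with TMM factors computed without ribosomal protein genes, 0 by DESeq2, 0 with 15 libraries in 1 fit and 0 to 3 without single libraries. Gnl3 siRNA on ER ribosomes called 5, but 3 by DESeq2, 14 with no filter, 2 with 15 libraries in 1 fit and 1 to 24 without single libraries. With the replicate number as a block, the counts were 0 and 1 on ER ribosomes and, for Gnl3 against scramble in whole-cell RNA, 1 in place of 0. Block and pairing checks otherwise changed the calls of Rpl31 and Rpl27 after Nmd3 siRNA, as given above. Nmd3 against Gnl3 on ER ribosomes called 0, but 1 with no filter and 0 to 4 without single libraries. In whole-cell RNA the count of 0 did not hold in every fit without a single library, for any comparison of siRNAs. Some of these fits left 1 library in a group, so their counts are not given. ER ribosomes against whole-cell RNA called 40, 36 and 39 members (Nmd3, Gnl3, scramble), 39 to 42, 34 to 38 and 37 to 41 without single libraries, and 0 in each with both left-out libraries. In that setting signs were checked only for the 5 members with the largest called ratios of each siRNA. After Nmd3 siRNA 2 of these reversed, Rpl24 (-0.28) and Rpl36 (-0.49), and 3 kept their sign without being called. The signs of the remaining members were not checked there. The difference in ER enrichment called 0 for Nmd3 siRNA, but 0 to 12 without single libraries, with 12 when whole-cell Nmd3 replicate 3 was left out. Over all genes, Nmd3 siRNA on ER ribosomes called 206 with the filter and 407 without it, and 126 with the block, and Gnl3 siRNA 472 and, with the block, 258. Leaving out single libraries moved the number of all genes called too, in every comparison except the ER enrichment after Gnl3 siRNA. Where 1 library was left in a group, it was assumed to vary like the others. The causes were not tested. Limits are the 2 scramble ER libraries, the small folds, and shared sequence with pseudogenes or overlapping genes.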
